A study of Homo sapiens with 4 samples.

Results

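The mRNAs described here encode poly(A)-binding proteins and factors that cleave and polyadenylate pre-mRNA. They are 10 genes of the 20056 annotated protein-coding genes: PABPN1, PABPC1, PABPC4, CPSF1, CPSF6, CPSF7, NUDT21, CSTF2, PAPOLA and SYMPK. A peak belonged to one of them if its gene name in the deposited tables was that symbol, and a gene without such a row counted as having no peak. The peaks mark antibody enrichment for N7-methylguanosine (m7G), the methylated guanine of the mRNA cap that has also been mapped inside mRNA. All libraries came from untreated U2OS cells, an established human osteosarcoma line, with no genetic change named in the labels. Poly(A) RNA of whole cells was immunoprecipitated (IP) with an antibody against m7G, which gave 2 IP libraries beside 2 of input RNA. Each IP replicate has its own table of peaks, with 4326 peaks in replicate 1 and 4862 in replicate 2.

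The cleavage and polyadenylation machinery cuts the nascent transcript downstream of the poly(A) signal and adds the tail. CPSF1 is a subunit of the complex that recognises the signal, CSTF2 binds the GU-rich element downstream of the cut, and cleavage factor I (NUDT21 with CPSF6 or CPSF7) binds upstream elements and influences which site is used. SYMPK (symplekin) is a scaffold that holds the complexes together, and PAPOLA is the canonical nuclear poly(A) polymerase. PABPN1 coats the growing tail in the nucleus, while PABPC1 and its relative PABPC4 bind it in the cytoplasm and connect it with translation.

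Of the 10 genes, 6 had a shared peak, meaning that peaks of both replicates lay on one strand and had 1 bp or more in common: PABPN1, PABPC1, PABPC4, CPSF1, PAPOLA and SYMPK. The start regions of PABPN1, PAPOLA and SYMPK are shown because a shared peak of fold above 4 covered the annotated start there or came within 7 nt of it. Those of NUDT21 and CPSF6, which had no peak, are set beside them. Each runs from 60 bases before the annotated start to 30 bases from it on, 5′ to 3′ on the gene's strand. Capitals mark bases inside a replicate 1 peak. The sequences are from RefSeq, build GRCh38.p14: PABPN1 chr14:23321397-23321486, plus strand, PAPOLA chr14:96502316-96502405, plus strand, SYMPK chr19:45863118-45863207, minus strand, NUDT21 chr16:56451303-56451392, minus strand, and CPSF6 chr12:69239509-69239598, plus strand.
PABPN1: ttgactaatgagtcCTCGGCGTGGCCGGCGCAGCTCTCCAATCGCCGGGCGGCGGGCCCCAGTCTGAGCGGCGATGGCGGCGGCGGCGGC
PAPOLA: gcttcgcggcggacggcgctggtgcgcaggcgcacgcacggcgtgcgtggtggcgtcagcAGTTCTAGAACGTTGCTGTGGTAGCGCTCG
SYMPK: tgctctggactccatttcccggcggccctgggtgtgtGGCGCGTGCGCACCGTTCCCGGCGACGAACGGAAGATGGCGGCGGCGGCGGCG
NUDT21: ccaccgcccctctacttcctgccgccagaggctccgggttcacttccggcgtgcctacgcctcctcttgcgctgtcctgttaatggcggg
CPSF6: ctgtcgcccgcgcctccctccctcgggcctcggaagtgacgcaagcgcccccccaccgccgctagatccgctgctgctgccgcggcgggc

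In the printed stretch of PABPN1, 76 bases lay in the peak in each replicate, from 46 nt before the annotated start. In PAPOLA the peak began at the first annotated base, so 30 bases lay in it in each replicate. In SYMPK 53 bases lay in the replicate 1 peak and 23 in the replicate 2 peak, which began 23 nt before and 7 nt after the annotated start. The PABPN1 and SYMPK stretches both end in a run of GGC repeats. The letters GGCGGCGGCGGC, part of that run and so chosen after these stretches were seen, were found on either strand in the 300-base windows (250 bases before the start and 50 from it) of PABPN1, SYMPK and CPSF7, which is 3 of the 7 members with a window, and in 3.36% of the 13820 windows of all protein-coding genes. Since the letters were taken from PABPN1 and SYMPK, their 2 matches were given in advance and the shares are no comparison. CPSF7 had no peak at its start. The windows' G and C content ran from 59% (CSTF2) to 72.3% (CPSF7), against a median of 62.7% over all windows. PABPN1 (61.7%), PAPOLA (68%) and SYMPK (65.7%) lay within the range of the members without a peak at the start.

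In replicate 1, 8 of the 10 genes had a peak, and in replicate 2, 6 did. Of all protein-coding genes, 15.9% had one in replicate 1 and 17.4% in replicate 2. The 6 genes with a shared peak compare with 10.5% of all protein-coding genes. Among protein-coding genes with a peak in either replicate, 48.6% had a shared one, and among the members it was 6 of 8. The tables hold no measure of expression, on which a peak also depends. The members are too few and were chosen with earlier results known, so no test was made. The fold and significance of each peak are the authors' own values, with the fold taken as IP over input. Depth is unknown for lack of read counts, and since nothing in the labels ties the replicates to separate cultures, their difference may be technical. With 2 IP libraries the only error is the difference between them. Over all 2653 shared peaks that difference had a median of 0.30 (log2), or 1.23 times, and for 95% of them it stayed under 1.28 (log2), or 2.42 times.

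The nuclear poly(A)-binding protein PABPN1 carried the strongest peak of the group. It stretched over chromosome 14 from 23321411 to 23322277 (plus strand) and had a fold of 18 in replicate 1 and 14.5 in replicate 2. Its boundaries were the same in both replicates, which held for 270 of all shared peaks (10.2%). Several edges on the members differed between replicates by the same step, as at PAPOLA (96502555 and 96502585) and PABPC4 (39576101 and 39576131). Identical boundaries therefore need not mean agreement to the single base. The strong PABPN1 peak had 2 blocks, of 410 and 97 nt, with a gap of 360 nt between them. Its log10 p was -240 in replicate 1 and -265 in replicate 2, rank 9 among the peaks of each table. By fold it stood at the 94.1 and 94.4 percentiles of the tables. The replicates differed by -0.31 on the log2 scale (replicate 2 over replicate 1), close to the median difference of all shared peaks.

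PABPN1 had a weaker shared peak toward the other end of its 4707 nt span. It ran from 23325380 to 23325559 with a fold of 2.89 in replicate 1, and from 23325350 to 23325678 with 3.61 in replicate 2, and its replicate 1 midpoint lay 694 nt from the annotated gene end. A peak of 1.32-fold was called only in replicate 1, with its first block 2757 nt from the start. Another, of 2.62-fold, was called only in replicate 2, its midpoint 113 nt from the gene end. The readthrough gene BCL2L2-PABPN1 covers all of PABPN1 with its annotated span, and the tables list peaks under that name at nearly the same places as these weaker ones, at 1.30- and 2.84-fold in replicate 1 and 3.79- and 2.62-fold in replicate 2. No peak under the readthrough name lay at the strong peak, but its span covers it too, so enrichment downstream of the start cannot be assigned to one of the 2 transcripts.

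The cytoplasmic proteins PABPC1 and PABPC4 had shared peaks of low fold, all of them within 899 nt of the annotated start. The PABPC1 peak lay on chromosome 8, minus strand, from 100721462 to 100721908 in replicate 1 and from 100721581 to 100721908 in replicate 2. Its folds were 1.42 and 1.41, a difference of -0.01 on the log2 scale and smaller than at nearly all shared peaks (percentile 1.55). By fold it was among the weakest peaks of the tables, at the 3.58 and 4.30 percentiles. By significance it was among the strongest, with log10 p of -20.3 (rank 389 of 4326) and -21.6 (rank 456 of 4862). Its nearest edge lay 180 nt from the annotated start in both replicates.

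A further PABPC1 peak was called only in replicate 2. It had 3 blocks from 100712661 to 100715476, a fold of 1.30 and a log10 p of -16.6. That placed it in the most significant 20% of the table, where 93.2% of peaks overlapped a replicate 1 peak. PABPC1 has processed copies elsewhere in the genome and close paralogs, and no source used here tells how reads matching several places were counted, so its values are uncertain.

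PABPC4, the cytoplasmic protein also known as inducible PABP, had 2 shared peaks on chromosome 1, minus strand. The one nearer the start ran from 39576400 to 39576580 in replicate 1, with 2.09-fold, and from 39576340 to 39576789 in replicate 2, with 2.58-fold. In replicate 2 it reached to 1 nt from the annotated start, and in replicate 1 it stopped 210 nt away. The other ran from 39575891 to 39576101 with 2.21-fold and from 39575891 to 39576131 with 1.89-fold. The stronger peak was thus a different one in each replicate, and the log2 differences of 0.30 and -0.23 were close to or below the median of all shared peaks.

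**Figure D1:**
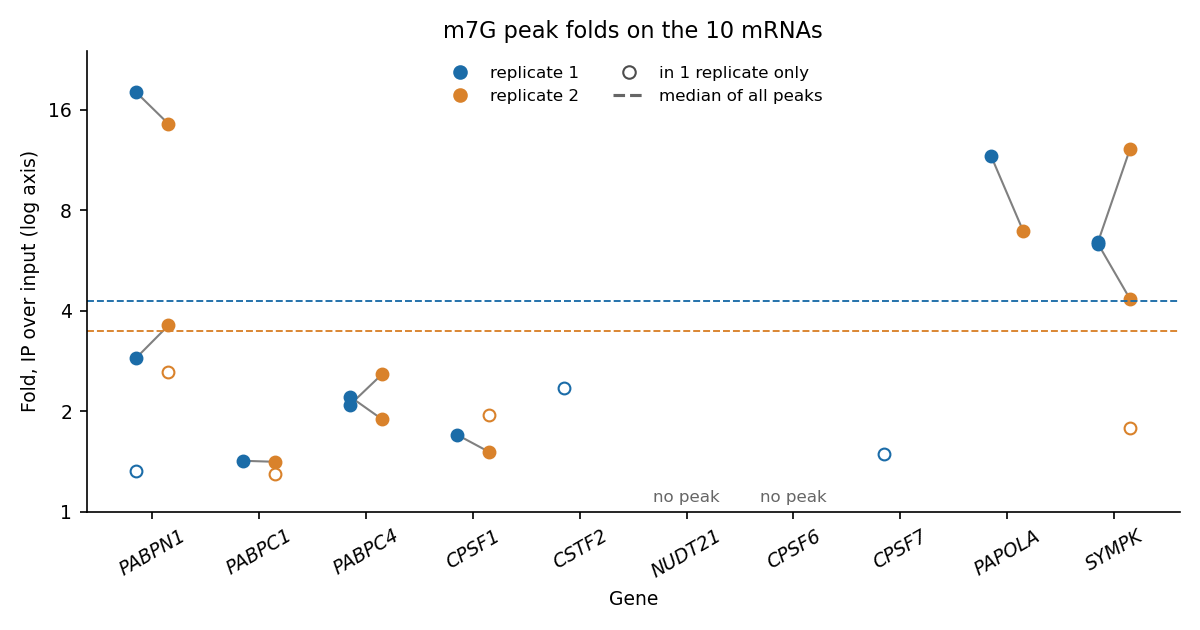
Fold of IP over input (log axis) for each peak of the 10 mRNAs, with replicate 1 to the left and replicate 2 to the right of each gene. Lines join shared peaks, open circles are peaks of 1 replicate only, and dashed lines are the medians of all peaks, 4.27 in replicate 1 and 3.48 in replicate 2. PABPN1, PAPOLA and SYMPK have shared peaks above both medians in both replicates, and every peak of the other genes lies below both.

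PAPOLA, the poly(A) polymerase, had a single peak in each replicate, at the very start of a gene of 64741 nt. It lay on chromosome 14, plus strand, from 96502376, the first annotated base, to 96502555 in replicate 1 and 96502585 in replicate 2. Its fold was 11.6 in replicate 1 and 6.92 in replicate 2. The difference of -0.75 on the log2 scale, a factor of 1.68, was larger than at 84.3% of shared peaks but inside the range that holds 95% of them. Its log10 p was -13.7 and -12.

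SYMPK had shared peaks at both ends of a gene of 47738 nt on chromosome 19, minus strand. The peak at the end ran from 45815442 to 45815864 in both replicates, in blocks of 256 and 14 nt, and its midpoint lay 166 nt from the annotated gene end. Its fold was 6.42 in replicate 1 and 12.2 in replicate 2, a difference of 0.93, a factor of 1.90, which exceeded that of 89.7% of shared peaks. This was the largest difference among the 9 shared peaks of the group.

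The SYMPK peak at the start had one block of 113 nt at the annotated start and another of 67 nt, 8550 nt further into the gene, in replicate 1. In replicate 2 the blocks were 83 and 7 nt with the same gap. Its fold was 6.34 in replicate 1 and 4.33 in replicate 2. In replicate 1 the start and end peaks of SYMPK had nearly the same fold, whereas in replicate 2 the end peak was the higher. A weak peak of 61 nt, 1.78-fold, in the middle of the gene was found in replicate 2 only, with log10 p of -3.01 and rank 4848 of 4862.

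CPSF1, the largest subunit of the cleavage and polyadenylation specificity factor, had its shared peak inside the gene. It lay on chromosome 8, minus strand, from 144398554 to 144398814 in replicate 1 and from 144398584 to 144398814 in replicate 2, its nearest edge 10521 nt from the annotated start. Both versions had 2 blocks with a gap of 140 nt. The folds were 1.70 and 1.51, at the 8.39 and 7.30 percentiles of the tables, with log10 p of -4.89 and -3.91. A second peak, from 144397520 to 144397640, reached 1.95-fold and was called only in replicate 2.

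The other 4 genes had no shared peak. CSTF2, the RNA-binding subunit of the cleavage stimulation factor, had a peak in replicate 1 only, on chromosome X from 100833232 to 100833382, plus strand, with 2.34-fold and log10 p of -5.66. It belonged to the middle 20% of its table by significance, where 61.8% of peaks were shared. CPSF7 had a peak in replicate 1 only, on chromosome 11 from 61416218 to 61416278, minus strand, with 1.49-fold and log10 p of -3.26. It belonged to the least significant 20%, where 28.7% were shared. NUDT21 and CPSF6 had no peak in either table, so no subunit of cleavage factor I had a shared peak. The tables hold only peaks past a threshold (the weakest false discovery rates were 0.0490 and 0.0479), so enrichment below it on these mRNAs is not known. A peak named for OGFOD1 lay 268 nt outside the NUDT21 span in replicate 1 and 208 nt outside it in replicate 2, on the opposite strand (2.68- and 3.64-fold).

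Altogether 25 peaks lay on the 10 genes, 12 in replicate 1 and 13 in replicate 2, and 7 of them had no counterpart in the other table. Those 7 had folds of 1.30 to 2.62. Both folds of a shared peak were 4 or more on PABPN1, PAPOLA and SYMPK, 3 of the 10 genes, against 5.18% of all protein-coding genes. When each gene was represented by its strongest shared peak, ranked on the lower of its folds, the 6 genes had a median of 4.25 (range 1.41 to 14.5), against 3.95 over the 2108 protein-coding genes with one. PABPC1, PABPC4 and CPSF1 lay below that value, at 2.09 or less, and PABPN1, PAPOLA and SYMPK above it, at 6.42 or more.

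Position along the gene was the next comparison, since the cap itself is m7G. Shared peaks had their midpoint within 200 nt of the annotated start on PAPOLA (89 nt) and SYMPK (67 nt), 2 of 9, against 23.5% of the 2650 shared peaks matched to a gene. The strong PABPN1 peak fell just outside, with its midpoint at 207 nt, although a block covered the start. Counting a peak as near if any of its blocks came within 200 nt of the start in either replicate, PABPN1, PABPC1 and PABPC4 joined PAPOLA and SYMPK, making 5 of 9, against 35.9% of all shared peaks. CPSF1 was thus the only gene with a shared peak and none near its annotated start, taken as the outer edge of the gene span. Within 1000 nt of the gene end lay the end peak of SYMPK and the weaker PABPN1 peak, 2 of 9, against 15.3% of all shared peaks. Distances are genomic, and exon and intron annotation was not used here.

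**Figure D2:**
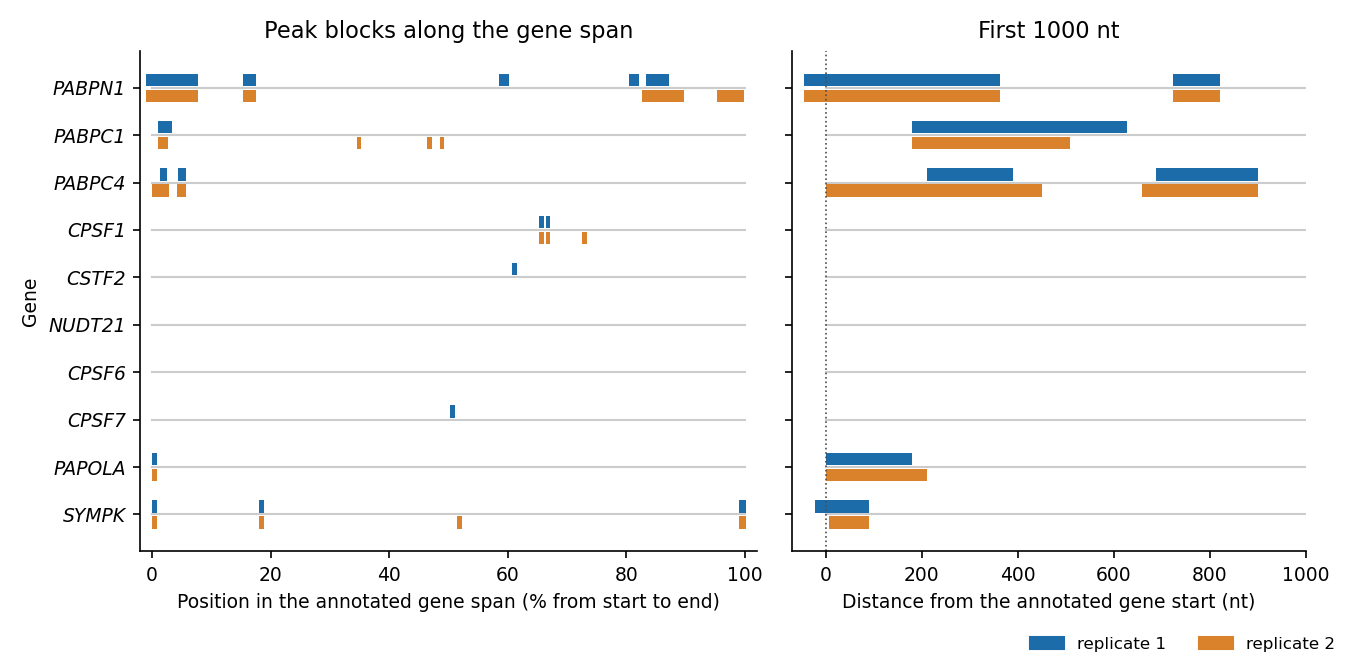
Peak blocks of the 10 mRNAs by replicate, on the left as a percentage of the annotated gene span from start to end (the shortest blocks are widened to stay visible), on the right in nt from the annotated start. PABPN1, PABPC1, PABPC4, PAPOLA and SYMPK have blocks in the first 1000 nt in both replicates, and PABPN1 and SYMPK also have blocks toward the gene end. Further blocks lie inside the gene on PABPN1 in replicate 1, on PABPC1 in replicate 2 and on SYMPK in both. All blocks of CPSF1, CSTF2 and CPSF7 lie inside the gene.

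Fold and significance ranked the peaks differently. The strong PABPN1 peak was high by both measures. PABPC1 and, less so, PABPC4 combined a low fold with high significance: the PABPC4 peak nearer the start had log10 p of -11.8 and -28.5 (rank 773 of 4326 and 343 of 4862). The SYMPK start peak stood somewhat higher by fold, at the 70.2 and 62.6 percentiles, than by significance. Its log10 p of -5.78 and -5.53 lay near the middle of each table (rank 2094 of 4326 and 2632 of 4862).

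**Figure D3:**
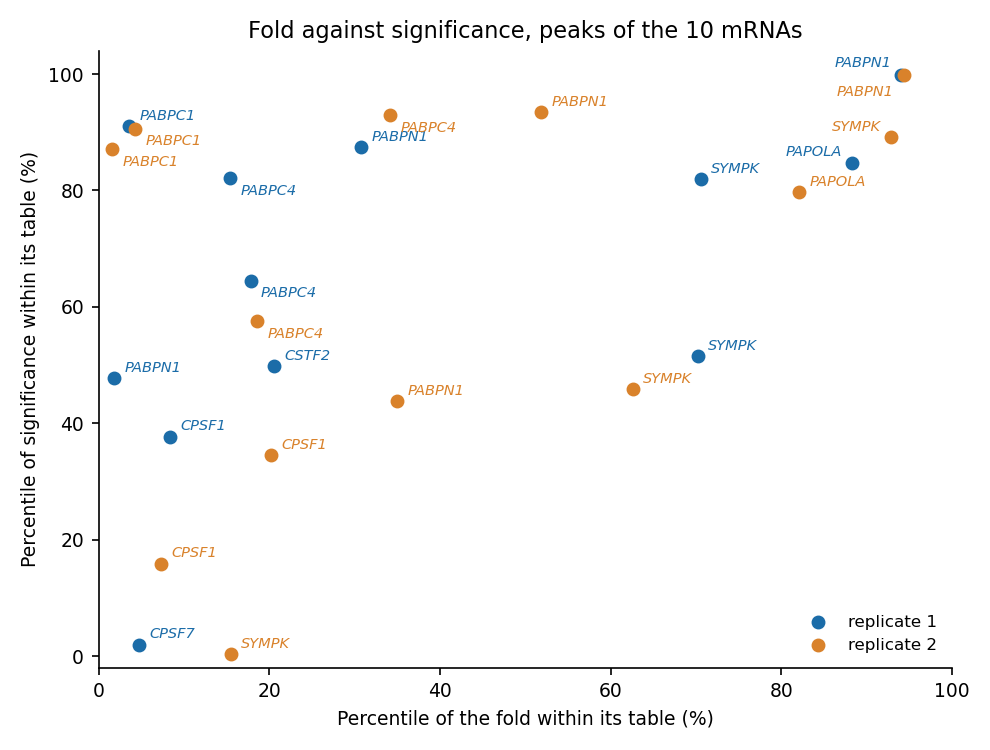
Percentile of the fold (x axis) against percentile of significance (y axis) within its own table for all 25 peaks of the 10 mRNAs, coloured by replicate. PABPC1 lies at the upper left, with low fold and high significance, the strong PABPN1 peak at the upper right, and CPSF7 and the weak SYMPK peak at the bottom.

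Across the 9 shared peaks of the group the median absolute difference between replicates was 0.31 on the log2 scale, and all 9 lay inside the range that holds 95% of shared peaks. The fold was higher in replicate 1 for 6 and in replicate 2 for 3, and 55.4% of all shared peaks were higher in replicate 1. Some folds repeat a single value. Among folds of at least 10 the most frequent was 18.5 in replicate 1 (67 of 4326 peaks) and 10 in replicate 2 (60 of 4862), and higher folds occurred in both. No fold on the 10 genes equalled either value or a whole multiple of it. Fractions of these values were not checked.

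**Figure D4:**
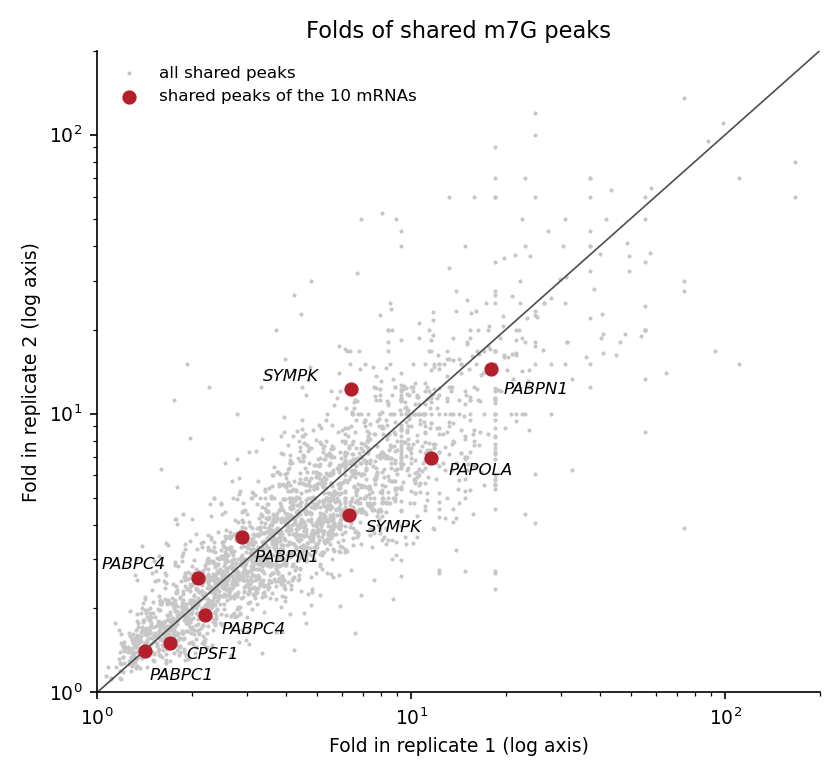
Fold in replicate 1 against fold in replicate 2 (both axes log) for all 2653 shared peaks in grey and the 9 shared peaks of the 10 mRNAs in red, with the line of equal fold. The red points lie within the grey cloud, with the end peak of SYMPK (6.42 and 12.2) farthest above the line and PAPOLA (11.6 and 6.92) farthest below it.

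Other genes linked to tail formation and removal were looked at as a list of 50. It held genes placed under cleavage and polyadenylation (among them XRN2, INTS9, INTS11, SCAF4 and SCAF8) and other poly(A) polymerases. It also held other poly(A)-binding proteins with their partners, and genes placed under deadenylation (among them BTG1, BTG2, TOB1 and TOB2). A shared peak was present on 14 of the 50 genes (28%), against the 10.5% of all protein-coding genes given above. On 1 more there was a peak in replicate 1 only and on 6 a peak in replicate 2 only. By role the genes with a shared peak were 7 of 19 under cleavage and polyadenylation and 7 of 17 under deadenylation. They were 0 of 4 other poly(A) polymerases and 0 of 10 other poly(A)-binding proteins and their partners. Of the genes with PABP names, then, PABPN1, PABPC1 and PABPC4 had a shared peak. The relatives PABPC3, PABPC5, PABPC4L and PABPN1L had no peak, and PABPC1L had 1 in replicate 2 only. Expression of these genes was not measured here, and the members were chosen with earlier results known, so no comparison is drawn.

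The strongest was that of SCAF8, which binds the tail domain of RNA polymerase II (24.7 and 23.3). CNOT6, a deadenylase of the CCR4-NOT complex, had 19.8 and 16.2, and CNOT11, another subunit, 6.43 and 6.24. PPP1CA, a catalytic subunit of protein phosphatase 1, had 18.5 and 10.9 at the stronger of 2 peaks, the first being the repeated value of replicate 1. RBBP6, a ubiquitin ligase of the cleavage complex, had 6.56 and 5.45, and PAN3, the partner of the PAN2 deadenylase, 4.72 and 7.50. CPSF4, a zinc finger subunit of the complex that recognises the poly(A) signal, had 4.38 and 8. FIP1L1, which links that complex to poly(A) polymerase, had 5.25 and 4.36.

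CPSF4 had its peak over the annotated start (midpoint at 101 nt), while the peak of CPSF1 lay far inside the gene. CSTF2T, the paralog of CSTF2 and chosen after its values were seen, had a shared peak with its midpoint 75 nt from the start (3.22 and 2.55), whereas the CSTF2 peak of replicate 1 lay 12841 nt inside the gene. Of the 16 shared peaks on the 50 genes, 7 had their midpoint within 200 nt of the annotated start and 12 had a block there, against the 23.5% and 35.9% of all shared peaks given above. The strongest shared peak of the 14 genes had a median lower fold of 4.37 (range 1.92 to 23.3). For the 6 genes above it was 4.25, though none of them lay between 2.09 and 6.42.

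Markers of 4 cell types were looked up too, though peaks cannot check the identity of the cell line, because they do not measure expression. A shared peak was present on 3 of 10 osteoblast and mesenchymal markers (COL1A1, SPARC and VIM), 2 of 5 epithelial markers (KRT18 and CLDN4), 0 of 5 haematopoietic and 0 of 5 hepatocyte markers, against 10.5% of all protein-coding genes. RUNX2, SP7 and ALPL, which mark the osteoblast lineage, had none.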

How the data were processed

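Per the labels' protocols, input and m7G IP libraries of U2OS poly(A) RNA were made with a stranded kit. The submitters' processing notes name STAR and GRCh38, but no source used here names the peak caller or how its folds were scaled. The deposited tables, 1 for each IP replicate, list for each peak, per the file headers, a p-value, the log10 of it and of the false discovery rate (each used as a score), and the fold of IP over input as a linear ratio.

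Overlaps were sought between blocks of like strand, and mutually best overlaps of at least 1 bp, peaks of the same gene name first, made the shared peaks. Peaks were matched by symbol or synonym to RefSeq genes (GRCh38.p14) within 2000 nt. Midpoints are those of the blocks laid end to end, and coordinates are 1-based. RefSeq start windows were matched for 7 members. None matched the outer annotated start of PABPC1, PABPC4 or CPSF1, so these are not shown. For them, as for all genes, the annotated start is the outer edge of the gene span.

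No test was made. The members and lists were chosen with earlier results of these data known. The text names all 10 members and the 8 of the 50 list genes with the highest lower fold. The overlap search was run on simulated data made of replicate 1 peaks, some shifted slightly and the rest moved far away. This easy case cannot show how the search handles peaks of changed length or close neighbours. Python 3.11.15, numpy 2.4.6, pandas 2.3.3 and matplotlib 3.10.9 were used.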

Additional observations from a re-analysis of the deposited data

How the results depend on the processing

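The 6 genes with a shared peak were the same 6 with 50% reciprocal overlap and with midpoints within 100 nt, and 6 were counted with synonyms too. They were 5 (without CPSF1) among the more significant 50% of each table, 4 when both folds had to be 2 or more and 3 (PABPN1, PAPOLA and SYMPK) when both had to be 4 or more. Counting all peaks of a single table gave 6 without replicate 1 and 8 without replicate 2. The 14 list genes became 11 with 50% reciprocal overlap and stayed 14 with midpoints within 100 nt. Reciprocal overlap was measured over whole spans, with the gaps between blocks included. The list count was 8 among the more significant 50%, 13 with a fold of at least 2 and 8 with a fold of at least 4. It ranged from 15 to 20 when 1 replicate was left out. The 2 shared peaks near the gene start became 5 within 500 nt and 5 by the nearest block edge. The median difference between replicates ran from 0.28 to 0.43 when folds were rescaled by table medians. No paired analysis was possible because the files used here hold no values of the input libraries and nothing was tested between groups. Without read counts no error can be set on a single fold.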
